A study of Mus musculus with 6 samples.

Results

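The D-type cyclins Ccnd1, Ccnd2 and Ccnd3, their kinases Cdk4 and Cdk6, and the CDK inhibitors Cdkn1a, Cdkn1b, Cdkn1c, Cdkn2a and Cdkn2b were followed in cultures of MSCs, the stromal cells of bone marrow that can form osteoblasts. They were chosen by symbol, as the core of the switch that lets a resting cell enter the cycle, and are 10 of the 20071 genes in the count table. In Prrx1-Cre;Pcif1fl/fl MSC cultures, Ccnd1 was 63.2% and Ccnd2 39.9% higher than in Pcif1fl/fl MSC cultures, whereas the inhibitors Cdkn1b and Cdkn1c fell by 31.5% and by 48.8%. These are bulk values of cultures in which macrophage RNA was abundant, and sex makeup cannot be told apart from genotype. Ccnd3, Cdk4 and Cdkn1a overlapped between the genotypes, and Cdk6, Cdkn2a and Cdkn2b were higher in all 3 libraries of the Cre genotype without passing the test.

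Both groups came from the femurs of 6-week-old mice on the C57BL/6J background that carry a Pcif1 allele with loxP sites around exons 5, 6 and 7. One group, the controls, was Pcif1fl/fl (3 libraries), and the other was Prrx1-Cre;Pcif1fl/fl (3 libraries, here the Cre libraries), in which a recombinase driven in limb mesenchyme removes those exons. All cultures had been kept for 7 days in osteogenic medium that contained dexamethasone (100 nM), β-glycerophosphate (5 mM) and ascorbic acid (50 µg/mL) before poly(A) RNA was sequenced. Whether each library is a mouse or culture of its own is not given in the labels, so the p-values measure the spread between these libraries, which may be technical. Prrx1-Cre acts on mesenchymal cells and their descendants, and other cells of a marrow culture are outside its reach.

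As background, D-type cyclins are made in answer to growth signals and switch on CDK4 and CDK6. These kinases phosphorylate the retinoblastoma protein and its relatives, which then let go of the E2F factors that transcribe the genes of DNA replication. The inhibitors fall into families that work differently. The INK4 proteins, here p16Ink4a from Cdkn2a and p15Ink4b from Cdkn2b, bind CDK4 and CDK6 and keep the D cyclins out. The CIP/KIP proteins p21 (Cdkn1a), p27 (Cdkn1b) and p57 (Cdkn1c) bind whole cyclin and CDK complexes, and block CDK2 above all. Osteoblast formation joins a phase of growth to a later exit from the cycle, and D cyclins and CIP/KIP inhibitors are known regulators of that exit in the skeleton.

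PCIF1 methylates the adenosine that stands directly after the mRNA cap, so the annotated transcription starts of members that differ in this base are shown. RefSeq promoters on GRCm38.p6 matched 7 of the 10 members, with 10 starts in all, and no entry was matched for Ccnd1, Ccnd2 or Cdkn1c. Each sequence below holds 14 bases before the start and 14 from it, written 5′ to 3′, with the first transcribed base in capitals. The windows are Cdkn1b on chr6:134920387-134920414 (plus strand), Cdkn1a on chr17:29090965-29090992 (plus strand), the distal start of Cdkn2a on chr4:89294606-89294633 (minus strand) and its proximal start on chr4:89282179-89282206 (minus strand).
Cdkn1b: ttaaatagacttgcAgtgtcaatcatct
Cdkn1a: ggtggggctgcttcAgtgcagggtggtg
Cdkn2a, distal start: gggcggcgcgtgggTctcgaggtgcctc
Cdkn2a, proximal start: ggaaggagggacccActggtcacacgac
An A stood at 5 of the 10 starts, and at 34.4% of the 32851 promoters of the same table. The other starts with an A were those of Cdk4 and of 1 of 2 Ccnd3 transcripts, while Cdk6 began with C and Cdkn2b with G. Of the 4 members called, Cdkn1b alone had a matched start, and it begins with A. Of the 2 starts of Cdkn1a, which did not pass the test, 1 begins with A and the other with T. Counts per gene do not show which start was used or whether its base was methylated.

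The libraries held 20258209 to 28227696 counts, and edgeR's filter left 13733 genes for testing, all 10 members among them. Pcif1 itself was at 42.8, 41.7 and 39.3 CPM (counts relative to the total of each library, with TMM factors) in controls and 39.2, 37.8 and 39.7 CPM in Cre libraries. Its log2 fold change was -0.09 (95% interval -0.30 to 0.13, edgeR adjusted p = 0.645), so these counts do not by themselves show the knockout. They pool all exons, and how much of the RNA lacked exons 5, 6 and 7 was not tested. Control replicate 3 stood apart: mitochondrial genes took 3.63% of its counts, against 1.40% to 1.57% elsewhere, and the chi-square per gene against its fellow controls was 88.5 and 105, against 2.89 to 10.7 for the other pairs of a genotype and about 1 from sampling noise alone. Xist lay at 232 to 443 CPM in controls and 0.722 to 1.79 CPM in Cre libraries, while the Y-linked gene Ddx3y was counted in every library, at 48.4 to 62.2 CPM in controls and 99.1 to 104 CPM in Cre libraries. Controls thus held RNA of both sexes, and the sex makeup of the cultures and the genotype cannot be told apart. Summed over 12 macrophage markers, levels were 31466 to 34932 CPM in controls and 32482 to 35658 CPM in Cre libraries, and macrophage Lyz2 alone lay at 21981 to 26233 CPM. Fcgr1 was called higher among the 12 (log2 fold change 0.89, edgeR adjusted p = 0.00605) and 0 were called lower, while 4 were higher and 1 lower without overlap between the groups. Macrophage RNA was therefore abundant in every library. In such bulk samples, fewer cells of a type and less RNA per cell cannot be told apart. The 10 mesenchymal markers summed to 7451 to 9858 CPM in controls and to 12659 to 13485 CPM in Cre libraries. Col1a1 and Col1a2 carried 90.1% to 95.4% of that sum in every library, and the other 8 markers summed to 615 to 740 CPM in controls and 626 to 651 CPM in Cre libraries, which overlapped. Of the 9 mesenchymal markers tested, 3 were called higher (Col1a1, Col1a2 and Thy1) and 2 lower (Pdgfra and Eng), and Twist2 had too few counts. With control replicate 3 left out, 6 mesenchymal markers were called higher and 3 lower, and 4 macrophage markers higher and 1 lower. That fit called 11.1% of all genes higher and 10.4% lower. Osteoblast markers overlapped in sum, at 10095 to 17231 and 12062 to 20294 CPM, of which Spp1, also a macrophage gene, carried 94.5% to 98.7%. Without Spp1 the other 8 summed to 551 to 687 CPM in controls and 258 to 302 CPM in Cre libraries with no overlap. Of the 8 osteoblast markers tested, Alpl, Ibsp and Sp7 were called lower, and Bglap was not tested, at 1 to 5 counts. Adipocyte markers summed to 762 to 801 CPM in controls and 662 to 863 CPM in Cre libraries, with 4 of 7 called lower. Those 4 (Adipoq, Plin1, Pparg and Cidec) summed to 72.1 to 87.4 CPM in controls and 9.72 to 11.9 CPM in Cre libraries, where Plin1 was at 0. They were summed because they were called lower. Of the markers left out, Fabp4 was higher in every Cre library (log2 fold change 0.46, edgeR adjusted p = 0.0545). Lpl and Cebpa had values of 0.23 and -0.19 with overlapping groups. Endothelial (at most 44.7 CPM), smooth muscle (487 to 650 CPM), chondrocyte (at most 27.8 CPM), neutrophil (at most 1.98 CPM), lymphoid (at most 3.83 CPM) and erythroid markers (at most 0.577 CPM) were lower in sum than the macrophage markers in every library. The part of these markers in the results on the members was not tested.

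Each gene was tested with the quasi-likelihood test of edgeR, and its p was adjusted by the Benjamini-Hochberg method over all 13733 genes (below, the edgeR adjusted p), and called at an adjusted p under 0.05. By this rule 2 of the 10 members were higher in Cre libraries, where 2.88% of all genes were, and 2 were lower, where 4.51% were. None of the 10 also reached the study's absolute log2 fold change of 1, which 1.03% of all genes passed as higher and 2.50% as lower. Without overlap between the groups, 5 members were higher (15.0% of all genes) and 2 lower (15.7% of all genes). Members are few and were chosen with results known, so these shares describe them and are no test of the set. Counts at an unadjusted p under 0.05 are given below for some lists. The share of all genes at that level was not computed, so they cannot be placed against it.

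**Figure D1:**
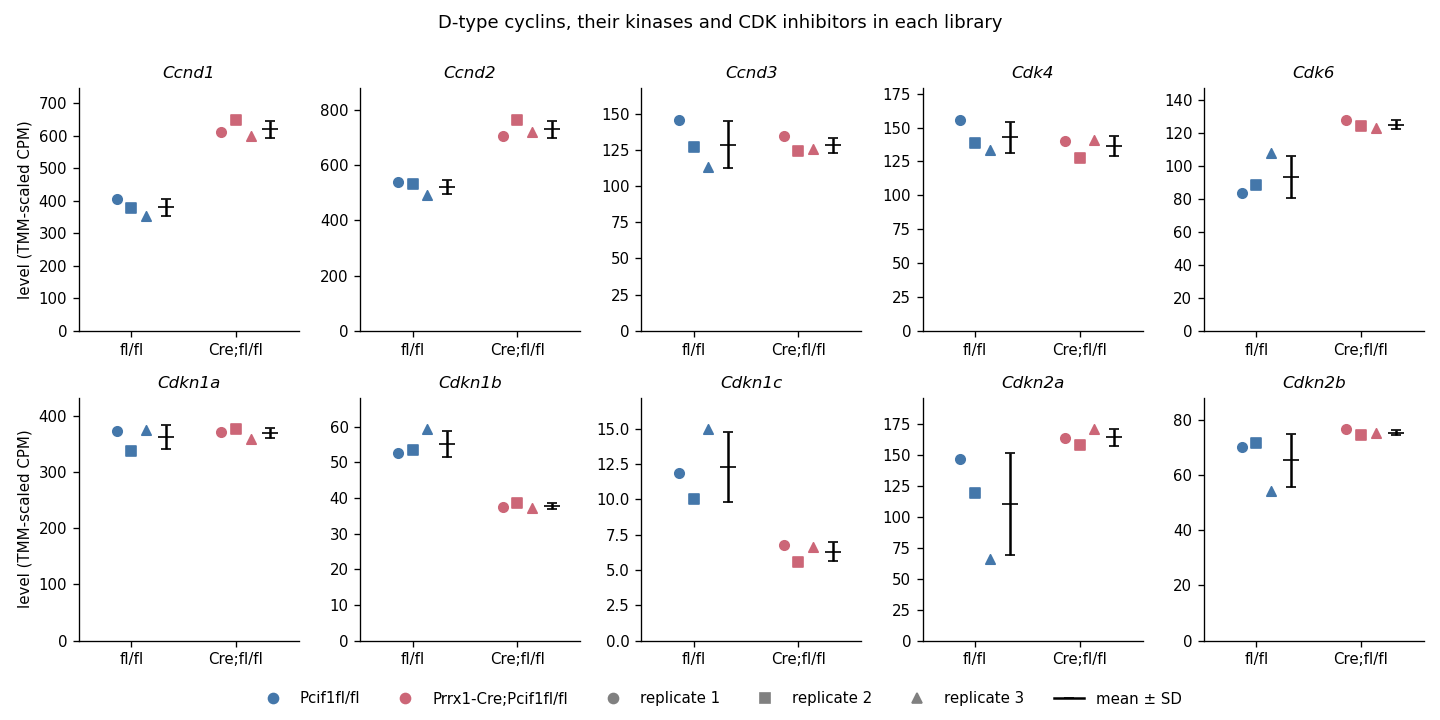
Level of each of the 10 genes in every library, in TMM-scaled CPM on axes that start at 0, with control libraries in blue, Cre libraries in red, marker shapes for the replicate number, and bars for the mean ± SD of 3 libraries. Ccnd1 and Ccnd2 stand higher and Cdkn1b and Cdkn1c lower in all 3 Cre libraries, and control replicate 3 holds the lowest Cdkn2a level, at 65.8 CPM.

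Of the D cyclins, Ccnd1 and Ccnd2 rose and Ccnd3 did not pass the test. Ccnd1 encodes cyclin D1, a textbook target of growth factor and Wnt signals. Its level was 406, 379 and 354 CPM in control replicates 1 to 3 and 611, 649 and 599 CPM in the Cre replicates. Every Cre library lay above every control, by a wide gap. The log2 fold change was 0.71 (standard error 0.09, 95% interval 0.50 to 0.91, edgeR adjusted p = 0.00248). Of the 4 calls among the members, it alone held in all 13 alternative fits, with log2 fold changes from 0.66 to 0.76. Ccnd1 (ENSMUSG00000070348) spans chromosome 7 from 144929931 to 144939925 on the minus strand, and 23.4% of its 4709 exonic bases overlap the opposite gene LTO1. LTO1 was at 14.9 to 22.7 CPM with overlapping groups (log2 fold change 0.14, edgeR adjusted p = 0.670), and reads shared between the genes were not tested. Of the mesenchymal marker sum given above, the Col1a1 and Col1a2 part was also higher in every Cre library while the other markers overlapped, and its part in the rise of Ccnd1 and Ccnd2 was not tested.

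Ccnd2 encodes cyclin D2, a close relative of cyclin D1 that acts on the same kinases. It was at 538, 532 and 493 CPM in controls and 704, 764 and 719 CPM in Cre libraries, and the groups did not overlap. This gave a log2 fold change of 0.48 (standard error 0.09, 95% interval 0.29 to 0.68, edgeR adjusted p = 0.0122). The call was lost when any 1 Cre library was left out, with log2 fold changes of 0.51, 0.45 and 0.50 without replicates 1, 2 and 3 and edgeR adjusted p-values from 0.0626 to 0.0730. Ccnd2 (ENSMUSG00000000184) lies on chromosome 6 from 127125162 to 127152193 on the minus strand, and antisense genes cover 7.86% of its 9409 exonic bases.

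Cyclin D3, from Ccnd3, is best known from blood and muscle cells. Its level was 146, 127 and 113 CPM in controls and 134, 124 and 126 CPM in Cre libraries. The 3 Cre libraries all fell within the range of the controls. Its log2 fold change was -0.01 (95% interval -0.26 to 0.24, edgeR adjusted p = 0.984), so that a change of the size seen in Ccnd1 or Ccnd2 lay outside the interval of Ccnd3. Ccnd3 (ENSMUSG00000034165, chromosome 17, 47505051 to 47599691, plus strand) shares 4.11% of its 8775 exonic bases with the opposite gene Bysl.

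The kinases showed no call. Cdk4, the partner of the D cyclins in most cells, was at 156, 139 and 134 CPM in controls and 140, 128 and 141 CPM in Cre libraries, with overlapping groups. Its log2 fold change was -0.07 (standard error 0.10, 95% interval -0.28 to 0.15, edgeR adjusted p = 0.729). The gene (ENSMUSG00000006728, chromosome 10, 127063534 to 127067920, plus strand) shares 19.7% of its 3249 exonic bases with the opposite gene Tspan31, which was at 56.3 to 98.1 CPM (log2 fold change 0.02, edgeR adjusted p = 0.972).

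Cdk6, the second kinase of the D cyclins, has been linked to the block of osteoblast maturation. It was at 83.8, 88.5 and 108 CPM in controls and 128, 124 and 123 CPM in Cre libraries. All Cre libraries lay above all controls, and control replicate 3 came closest to them. A log2 fold change of 0.42 (standard error 0.11, 95% interval 0.17 to 0.67) missed the threshold with an edgeR adjusted p of 0.0565, whose range over the alternatives was 2.72e-05 to 0.211. With DESeq2 the log2 fold change was 0.43 and the adjusted p 0.0212. Without control replicate 3 it was 0.54 (edgeR adjusted p = 2.72e-05), in a fit that called 11.1% of all genes higher and 10.4% lower. Cdk6 (ENSMUSG00000040274, chromosome 5, 3341485 to 3531008, plus strand) has 13989 exonic bases, 2.63% of them opposite an antisense gene.

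Of the CIP/KIP inhibitors, Cdkn1b and Cdkn1c fell and Cdkn1a did not pass the test. Cdkn1b encodes p27, which holds cells in quiescence. Its level was 52.5, 53.4 and 59.3 CPM in controls and 37.5, 38.6 and 37.1 CPM in Cre libraries. The Cre libraries lay close together and below every control. On the log2 scale the fold change was -0.55 (standard error 0.09, 95% interval -0.76 to -0.33, edgeR adjusted p = 0.0104). It was -0.54, -0.56 and -0.53 without Cre replicates 1, 2 and 3, none of them past the threshold (edgeR adjusted p from 0.0548 to 0.0790), and -0.49 without control replicate 3 (edgeR adjusted p = 0.000161). Cdkn1b (ENSMUSG00000003031, chromosome 6, 134920401 to 134925513, plus strand) overlaps no other annotated exon, and its start is the first of the sequences above.

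Cdkn1c encodes p57, an imprinted inhibitor that is needed for the growth plate and for other skeletal tissue. It had the fewest counts of the members, 111 to 417 in a library. Its level was 11.9, 10.03 and 15.0 CPM in controls and 6.75, 5.52 and 6.59 CPM in Cre libraries. The groups did not overlap, and control replicate 3 was the highest. The difference amounted to a log2 fold change of -0.97 (standard error 0.18, 95% interval -1.38 to -0.55, edgeR adjusted p = 0.0154). Without Cre replicates 1, 2 and 3 it was -1.01, -0.88 and -0.997, again short of the threshold (edgeR adjusted p from 0.0636 to 0.0802), and without control replicate 2 it was -1.09. Cdkn1c (ENSMUSG00000037664, chromosome 7, 143458339 to 143461050, minus strand) has an antisense gene, Gm44732, over 30.7% of its 2039 exonic bases, and reads of both cannot be told apart where strand was not used. Among 9 tested genes of the imprinted domain around Cdkn1c, 0 were called by edgeR and their median log2 fold change was 0.08. At an unadjusted p under 0.05, 1 of them (Tnfrsf23) was higher and 0 lower, and DESeq2 called that gene while limma-voom called 0. The domain had 2 genes called higher and a median of -0.01 without control replicate 3, in a fit that called 11.1% of all genes higher. DESeq2 called 593 of 20071 genes higher. The antisense transcript Kcnq1ot1, which silences the paternal copy of this domain, had a log2 fold change of 0.08 as well.

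Cdkn1a encodes p21, the inhibitor that p53 induces after damage. Its level was 373, 338 and 375 CPM in controls and 372, 376 and 359 CPM in Cre libraries, and the groups overlapped almost wholly. The log2 fold change was 0.03 (standard error 0.09, 95% interval -0.17 to 0.22, edgeR adjusted p = 0.888). Cdkn1a (ENSMUSG00000023067) lies on chromosome 17 from 29090976 to 29100727 on the plus strand. Of 21 other p53 targets tested, 1 was called higher and 0 lower, with a median log2 fold change of 0.19 (5 higher and 1 lower at an unadjusted p under 0.05, and 3 and 0 by DESeq2). DESeq2 called 593 of 20071 genes higher and 830 lower, and the share of all genes at an unadjusted p under 0.05 was not computed. The gene called by edgeR was Mdm2, which encodes the ligase that degrades p53, at 156, 172 and 209 CPM in controls and 265, 271 and 269 CPM in Cre libraries (log2 fold change 0.58, edgeR adjusted p = 0.0195). Without control replicate 3, 6 p53 targets were called higher and 1 lower, where 11.1% and 10.4% of all genes were.

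The INK4 genes Cdkn2a and Cdkn2b are neighbours on chromosome 4 and both lay higher in every Cre library, but neither passed the test. Cdkn2a was at 146, 119 and 65.8 CPM in controls and 164, 158 and 171 CPM in Cre libraries. The controls spread over more than the difference between the group means, and control replicate 3 was far the lowest. The log2 fold change of 0.57 (standard error 0.25, 95% interval 0.01 to 1.13) had an edgeR adjusted p of 0.224, with a range of 0.0130 to 0.45 over the alternatives. Without control replicate 3 it was smaller, 0.31, and passed the threshold (edgeR adjusted p = 0.0130), and without control replicate 1 it was 0.83 (edgeR adjusted p = 0.0876). Control replicate 3 also had the highest level of the proliferation marker Mki67, 175 CPM against 66.8 and 95.3 CPM in the other controls and 58.1, 48.0 and 70.5 CPM in Cre libraries. Genes of the cycle differed in this. Ccna2 was also highest there, at 28.4 CPM against 16.4 and 19.7 CPM in the other controls. Cdk1 was lowest there, at 15.7 CPM against 25.5 and 23.7 CPM. Whether its cells divided more was not tested.

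Cdkn2a (ENSMUSG00000044303, 89274471 to 89294653, minus strand) encodes p16Ink4a from its proximal start and, in another reading frame from the distal start, p19Arf, which protects p53 from Mdm2. The RefSeq windows of both starts are among the sequences above. The distal start is at 89294619 in RefSeq and at 89294653 in GENCODE, so the base shown is that of the RefSeq start. In GENCODE its 2 transcripts share 575 of 1172 exonic bases, or 49.1%, and counts per gene cannot divide the reads between them. Cdkn2b (ENSMUSG00000073802, 89306299 to 89311039, minus strand) is the inhibitor that TGF-beta induces. It was at 70.3, 71.7 and 54.4 CPM in controls and 76.7, 74.7 and 75.2 CPM in Cre libraries, with control replicate 3 again the lowest and a gap of few CPM between the groups. Its log2 fold change was 0.21 (standard error 0.12, 95% interval -0.07 to 0.48, edgeR adjusted p = 0.373), and it was 0.09 with control replicate 3 left out. Of the next genes along the chromosome, Mtap had a log2 fold change of 0.32 (edgeR adjusted p = 0.0778), and Dmrta1 was called lower, from 0.961, 1.14 and 0.502 CPM to 0.180, 0 and 0 CPM (edgeR adjusted p = 0.0329).

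**Figure D2:**
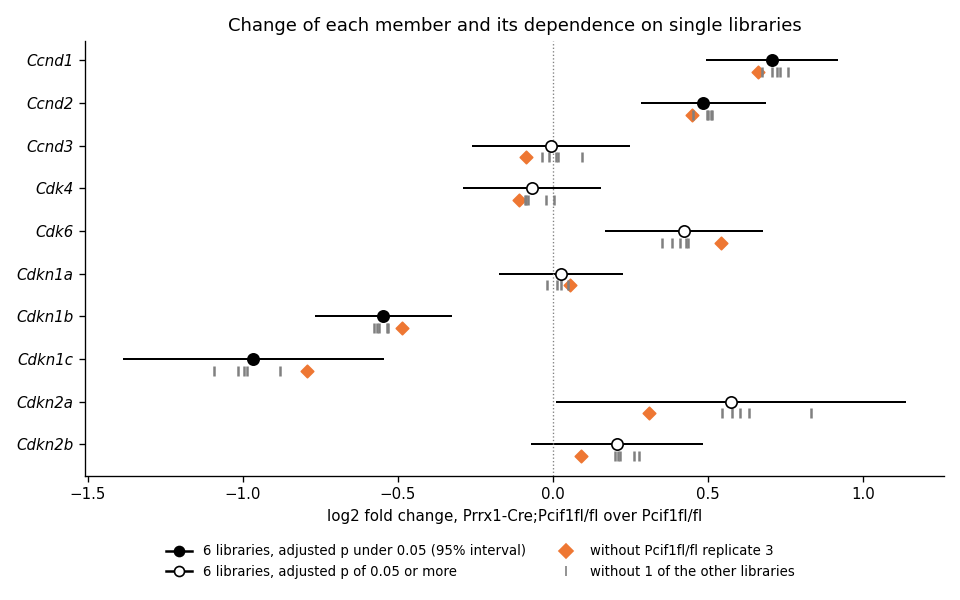
Log2 fold change of each gene in Prrx1-Cre;Pcif1fl/fl over Pcif1fl/fl MSC cultures (bulk RNA), with circles and 95% intervals for all 6 libraries (filled where the edgeR adjusted p is under 0.05), diamonds for the fit without control replicate 3 and ticks for fits without 1 of the other libraries. Cdkn2a moves most when a library is left out, from 0.31 to 0.83, while Ccnd1 stays between 0.66 and 0.76.

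Fewer genes were called with 1 Cre library left out, members included. Without Cre replicates 1, 2 and 3, the shares of all genes called higher were 1.06%, 1.23% and 1.07%, and the shares called lower were 2.32%, 2.50% and 2.35%. Ccnd1 was the 1 member called in each of these 3 fits. Without control replicate 3, 4 members were called higher (Ccnd1, Ccnd2, Cdk6 and Cdkn2a), where 11.1% of all genes were, and 2 lower (Cdkn1b and Cdkn1c), where 10.4% were.

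Levels were set against each other per kilobase of exon, since longer transcripts collect more reads. Each length is that of all annotated exons of the gene merged, not of the transcript in use. Genes with many alternative exons are therefore set lower, and the order and shares below depend on these lengths. In controls, Cdkn1a was the highest at 102 ± 5.90 CPM per kb (SD, n = 3), followed by Cdkn2a at 94.2 ± 35.0, Ccnd1 at 80.6 ± 5.47, Ccnd2 at 55.4 ± 2.60, Cdkn2b at 47.1 ± 6.92 and Cdk4 at 43.9 ± 3.57 CPM per kb. Ccnd3 at 14.7 ± 1.88, Cdkn1b at 12.1 ± 0.804, Cdk6 at 6.67 ± 0.907 and Cdkn1c at 6.03 ± 1.22 CPM per kb formed the lower end. Control libraries overlapped between Cdkn1a and Cdkn2a, Cdkn2a and Ccnd1, Cdkn2a and Ccnd2, Cdkn2b and Cdk4, Ccnd3 and Cdkn1b, and Cdk6 and Cdkn1c, so the order within these pairs is not settled.

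In Cre libraries the order began with Cdkn2a at 140 ± 5.57 and Ccnd1 at 132 ± 5.61 CPM per kb, whose libraries overlapped, and Cdkn1a came next at 104 ± 2.47 CPM per kb. Cdk6 at 8.94 ± 0.191 CPM per kb then stood above Cdkn1b at 8.29 ± 0.166 CPM per kb in every library, whereas in controls every library had Cdkn1b above Cdk6. That reversal holds only per kb. In CPM, Cdk6 lay above Cdkn1b in every library of both groups (83.8 to 108 against 52.5 to 59.3 CPM in controls). The 3 D cyclins together went from 151 ± 9.77 to 224 ± 8.38 CPM per kb. The 2 kinases summed to 50.6 ± 2.90 and 50.9 ± 2.32 CPM per kb, and the 5 inhibitors to 261 ± 38.5 and 310 ± 3.77 CPM per kb. The inhibitor sums of control replicates 1 to 3 were 298, 265 and 221 CPM per kb, against 305 to 312 CPM per kb in Cre libraries. Control replicate 3 thus enlarged that difference.

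The makeup of each class, which does not depend on library scaling, moved with these levels. Ccnd1 made up 53.5% ± 0.357 of D cyclin RNA per kb in controls and 58.8% ± 0.424 in Cre libraries (SD, n = 3), with no overlap. Ccnd2 went from 36.8% ± 0.886 to 34.6% ± 0.564 and Ccnd3 from 9.70% ± 0.623 to 6.53% ± 0.443, so the share of Ccnd2 was lower although its level was higher. Cdk6 was 13.3% ± 2.35 of the kinase pair in controls and 17.6% ± 0.775 in Cre libraries. Among the inhibitors, Cdkn1b went from 4.73% ± 1.04 to 2.68% ± 0.0866 and Cdkn1c from 2.38% ± 0.815 to 0.995% ± 0.0946. Without division by length, the difference in share was 8.38 points for Cdk6 (4.34 per kb) and -3.37 points for Cdkn1b (-2.05 per kb). Cdkn2a took 41.9%, 38.3% and 25.4% in control replicates 1 to 3 and 45.0%, 44.1% and 46.7% in the Cre replicates, and Cdkn1a 35.3%, 35.9% and 47.7% against 33.6%, 34.7% and 32.4%. Control replicate 3 therefore set most of the spread in both shares.

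**Figure D3:**
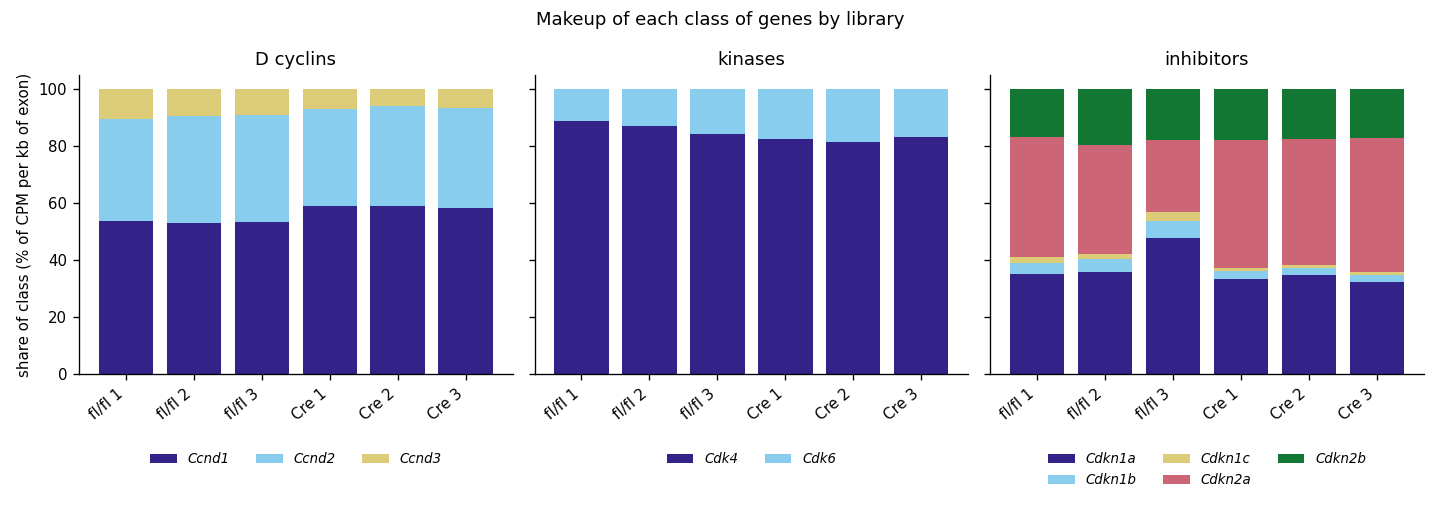
Share of each gene within the D cyclins, the kinases and the inhibitors in every library, as percent of the class in CPM per kb of exon, with fl/fl for controls and Cre for Prrx1-Cre;Pcif1fl/fl. The share of Ccnd1 is 53.1% to 53.9% in controls and 58.3% to 59.1% in Cre libraries, and the inhibitors of control replicate 3 differ from those of the other 5 libraries.

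The rest of the G1/S machinery was described from hand-written lists. Of 47 further regulators tested (E2F and pocket proteins, cyclins E and A with CDK2, CDK activation, protein turnover, other INK4 genes and transcription factors of the members), 0 were called higher by edgeR and 2 lower, with a median log2 fold change of -0.11 against 0.0017 over all genes. At an unadjusted p under 0.05, 1 was higher and 9 lower, with no share over all genes to set beside them. DESeq2 called 1 higher and 4 lower, where it called 593 of 20071 genes higher and 830 lower. Cdkn3, a phosphatase of CDK2, was at 2.58, 3.05 and 2.65 CPM in controls and 1.08, 1.24 and 1.30 CPM in Cre libraries (log2 fold change -1.19, edgeR adjusted p = 0.0134). Cbx7, a Polycomb protein known to repress the Cdkn2a locus, was at 12.5, 12.2 and 11.0 CPM in controls and 7.20, 8.91 and 7.26 CPM in Cre libraries (log2 fold change -0.61, edgeR adjusted p = 0.0385). Rb1, the target of the D cyclin kinases, had a log2 fold change of -0.14 (edgeR adjusted p = 0.649), and the remaining INK4 genes Cdkn2c and Cdkn2d had values of -0.40 and 0.24 (edgeR adjusted p = 0.124 and 0.746). Cyclin A2, from Ccna2, lay lower in every Cre library, with a log2 fold change of -0.76 and an edgeR adjusted p of 0.0582. Without control replicate 3, the list had 2 genes called higher and 8 lower, where 11.1% and 10.4% of all genes were. Without control replicate 2 or any 1 Cre library it had 0 called lower.

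Of the genes of the later phases of the cycle, few passed the edgeR test after adjustment. At an unadjusted p under 0.05, 16 of 20 mitotic and 6 of 20 S phase genes were lower and 0 higher. All 20 genes of G2 and mitosis had a negative log2 fold change, with a median of -0.53, and 13 of them did not overlap between the groups, but only Ttk (log2 fold change -0.74, edgeR adjusted p = 0.0414), a spindle checkpoint kinase, and Ccnb1 (-0.52, edgeR adjusted p = 0.0347), the mitotic cyclin B1, were called. Over all genes tested, 15.7% were lower without overlap and 4.51% were called lower. Mki67 had a log2 fold change of -0.93 with overlapping groups (edgeR adjusted p = 0.131). Of 20 genes of S phase, 17 were negative and 3 positive, with a median of -0.23, and Mcm7, a subunit of the replicative helicase, was the 1 called (-0.52, edgeR adjusted p = 0.0171). Without control replicate 3, the medians were -0.43 and -0.22, and 13 mitotic and 7 S phase genes were called lower, in the fit that called 10.4% of all genes lower. With DESeq2 on all 6 libraries, 8 mitotic and 2 S phase genes were called lower, where 830 of 20071 genes were.

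**Figure D4:**
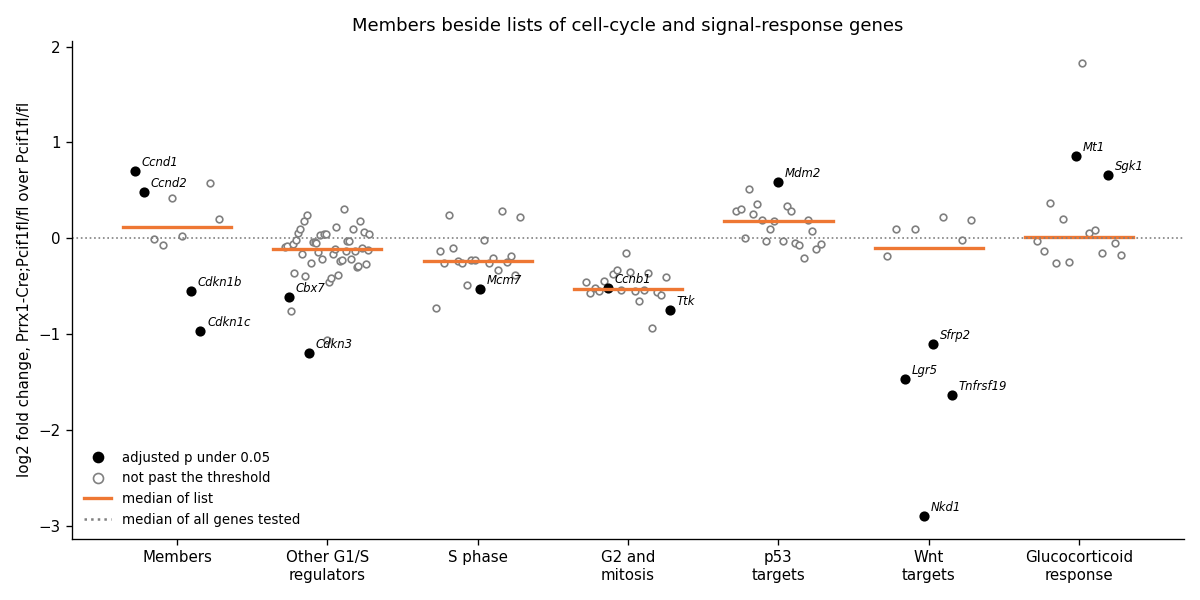
Log2 fold change of the 10 members beside each gene of 6 lists, with filled points for genes past the threshold, orange bars for the median of each list and a dotted line for the median of all genes. The members spread to both sides of 0, from -0.97 to 0.71, whereas all 20 genes of G2 and mitosis lie under the line.

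Signals that are known to act on the members gave mixed values. Ccnd1 is a textbook Wnt target. Of 15 other Wnt targets listed, 10 had enough counts to be tested, and 4 of these had a positive and 6 a negative log2 fold change. By edgeR 0 were called higher and 4 lower (the same counts hold at an unadjusted p under 0.05 and by DESeq2). The part of Wnt signals in the level of Ccnd1 was not tested. Leaving out control replicate 3 gave 1 called higher and 4 lower, in the fit that called 11.1% of all genes higher and 10.4% lower. DESeq2 called 593 of 20071 genes higher and 830 lower. The 4 called lower with all 6 libraries were Nkd1 (log2 fold change -2.90, edgeR adjusted p = 0.000283), Sfrp2 (-1.10, 0.00121), Lgr5 (-1.47, 0.00204) and Tnfrsf19 (-1.64, 0.0192), of which Nkd1 and Sfrp2 encode modulators of the pathway itself. Axin2, the target most often read as a gauge of the pathway, had a log2 fold change of 0.10 (edgeR adjusted p = 0.796), and Myc, which is on both lists, one of 0.10 (edgeR adjusted p = 0.870). Dexamethasone in the medium acts through the glucocorticoid receptor, which is known to induce Cdkn1c. Of 14 genes of that response, Sgk1 (0.66, edgeR adjusted p = 0.00268) and Mt1 (0.86, edgeR adjusted p = 0.0104) were called higher and 0 lower, with a median of 0.01 (4 higher and 2 lower at an unadjusted p under 0.05, and 2 and 0 by DESeq2), while Fkbp5 and Tsc22d3 had values of 0.20 and -0.05 (edgeR adjusted p = 0.524 and 0.875). In the fit without control replicate 3, 3 genes of the response were called higher and 4 lower, where 11.1% and 10.4% of all genes were.

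INK4 genes are used as marks of senescent cells, so a list of the senescent secretome and nucleus was set beside them. Of the 10 genes analysed here, the chemokine gene Ccl2 (log2 fold change 2.22, edgeR adjusted p = 5.23e-05) was called higher. Hmgb2 (-0.52, edgeR adjusted p = 0.0340) and Igfbp3 (-0.70, edgeR adjusted p = 0.0438) were called lower. Without control replicate 3 the counts were 1 higher and 4 lower, where 11.1% and 10.4% of all genes were. In senescent cells Ccl2 and Igfbp3 are known to rise and Hmgb2 to fall, and Ccl2 is also a macrophage gene. Il6 and Cxcl2, on the same list, had too few counts to be tested.

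The genes whose levels ran most like those of Ccnd1 and Cdkn1b, the members with the smallest p in each direction, were found by Pearson's r of log2(CPM + 0.5) over the 6 libraries. The libraries fall into 2 groups, so that any gene with a steady difference between genotypes scores highly, and the values are descriptions. For Ccnd1 these were Timp1 (log2 fold change 1.19), an inhibitor of metalloproteases, Ugdh (0.37), an enzyme of glycosaminoglycan synthesis, and Axl (0.80), a receptor tyrosine kinase, each with r of 0.998 or more after rounding. For Cdkn1b they were Snapin (-0.29), Synpo2 (-1.68) and Rgs5 (-1.99), again with r of 0.998 or more.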

How the data were processed

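Poly(A) RNA of 3 control and 3 Cre libraries was sequenced by the authors (paired reads, HISAT2 to mm10, GRCm38), and the deposited values are raw counts of reads per gene. How reads were counted (tool, annotation, strand) is not given in the sources used here, and without strand, overlapping genes can share reads. The labels name 3 libraries of each genotype, although the series' design text mentions duplicates. Of 20163 rows, 92 repeated an Ensembl ID with identical counts, which left 20071 genes.

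The test was edgeR's quasi-likelihood test (version 4.0.16 in R 4.3.3, with filterByExpr, TMM factors, glmQLFit, glmQLFTest and no covariate), and p-values were Benjamini-Hochberg adjusted over all tested genes. Standard errors are the log2 fold change over the square root of F. CPM values are TMM-scaled, and lengths and positions come from GENCODE M21 on GRCm38, which held 20059 of the genes. Alternatives were DESeq2 1.42.0, RLE or total scaling, limma-voom (3.58.1), no filter, a mean of 10 counts, a replicate block and leaving out each library. The members and gene lists were chosen with earlier results of these data known, and 1 gene of the senescence list is not reported here. Genes named from a list are the called ones, up to 4 a direction with the smallest p, plus a few known regulators (Rb1, Cdkn2c, Cdkn2d, Ccna2, Cdk1, Mki67, Axin2, Myc, Fkbp5, Tsc22d3, Kcnq1ot1, Tnfrsf23 and Mtap), marker genes (Lyz2, Spp1, Ddx3y and others) and untested genes (Twist2, Bglap, Il6 and Cxcl2) chosen after their values were seen. Standard errors and intervals cover the spread between these libraries, and reads copied by PCR count as separate reads.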

Additional observations from a re-analysis of the deposited data

How the results depend on the processing

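Every member's log2 fold change was refitted under 13 alternatives. Ccnd1 kept its direction and its call throughout, Cdkn2b its direction and its side of the threshold. Cdk6 passed the threshold with DESeq2 (0.43). Ccnd3 changed sign with limma-voom (0.0026), with the replicate block (0.00048) and without control replicate 1 (0.095), Cre replicate 2 (0.016) or Cre replicate 3 (0.010), Cdk4 without control replicate 1 (0.0027) and Cdkn1a without control replicate 2 (-0.020), all far from the threshold. Leaving out 1 library gave ranges of 0.66 to 0.76 for Ccnd1, 0.45 to 0.51 for Ccnd2, -0.088 to 0.095 for Ccnd3, -0.11 to 0.0027 for Cdk4, 0.35 to 0.54 for Cdk6, -0.020 to 0.056 for Cdkn1a, -0.58 to -0.49 for Cdkn1b, -1.09 to -0.79 for Cdkn1c, 0.31 to 0.83 for Cdkn2a and 0.092 to 0.28 for Cdkn2b. The members called went from 1 to 4 higher and 0 to 2 lower, those past an absolute log2 fold change of 1 from 0 to 1 lower, and the G1/S regulators called from 0 to 2 higher and 0 to 8 lower. With DESeq2, 1 G1/S regulator was called higher and 4 lower, where 593 and 830 of 20071 genes were. Without division by exon length, the difference in share (Cre minus control) was 8.38 points for Cdk6 (4.34 per kb) and -3.37 points for Cdkn1b (-2.05 per kb). The cause of these shifts was not tested.

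No pairing by replicate number was evident: deviations from the group means correlated at 0.055, -0.045 and -0.013 for the same number and at -0.041 to 0.049 for different numbers. With 3 libraries a group, this cannot exclude a pairing. With the number as a block no member gained or lost its call, and 267 genes were called higher and 503 lower, against 396 and 620 without it. The median over all genes was 0.0017 with TMM, 0.0054 with RLE factors and -0.021 with library totals. Cdkn2a had the widest 95% interval of the members (0.01 to 1.13) and Cdkn1c the fewest counts.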
